A study of Mus musculus with 32 samples.

Results

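Open chromatin near 10 genes of lipopolysaccharide (LPS) sensing and Toll-like receptor (TLR) signalling was followed in haematopoietic stem and progenitor cells (HSPCs) from mouse bone marrow. The genes are Tlr4, Cd14, Ly96, Tlr2, Myd88, Ticam1, Irak2, Irak3, Traf6 and Map3k8. Their peaks were those whose nearest protein-coding gene model within 50 kb was one of the 10, which gave 708 of the 1054860 peaks in 16 deposited ATAC-seq peak lists. Merged where they overlapped, these peaks formed 72 regions, of which 11 were in all 16 lists and 13 in only 1.

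The HSPCs were lineage-negative, cKit-positive, Sca1-positive and CD45.1+/2+, so they came from wild-type donor marrow and not from the marrow that carried a transgene. Lethally irradiated C57BL/6J recipients (CD45.2) were given 800000 wild-type marrow cells with 200000 CD45.1 cells. In AF9-experienced mice the CD45.1 cells were homozygous for human MLL-AF9, a leukaemia fusion gene, and for rtTA, which switches it on when doxycycline is given. In naive mice they carried rtTA alone. All mice were transplanted, took doxycycline for 5 weeks from 6 to 8 weeks after transplantation and were then 4 weeks without it. PBS or LPS was given 24 h before the cells were taken. There were 5 AF9-experienced LPS, 4 AF9-experienced PBS, 3 naive LPS and 4 naive PBS replicates, each with 2 technical libraries that share 1 list. The animals' age, the LPS dose and the number of mice behind a replicate are not given in the sources used here.

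LPS is carried by CD14 to the receptor complex of TLR4 and MD-2, which Ly96 encodes, while TLR2 recognises bacterial lipoproteins. Inside the cell the signal runs through the adaptors MyD88 and TRIF (encoded by Ticam1), the IRAK kinases, the ubiquitin ligase TRAF6 and, further down, the kinase TPL2, which Map3k8 encodes, to NF-kB, MAP kinases and interferon regulatory factors. Stem and progenitor cells carry these receptors too, and LPS can act on them directly or through cytokines of other cells.

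Promoters of 6 of the 10 genes were in the RefSeq table used (build GRCm38.p6, 250 bases before to 50 after a gene's start). Of these, 3 are shown, with a different motif marked in each. In the Tlr2 promoter (chr3:83841559-83841858, minus strand), capitals mark 2 stretches that match the kappa B motif that NF-kB binds. In the Myd88 promoter (chr9:119339969-119340268, minus strand), capitals mark a match to the interferon-stimulated response element pattern, GAAA repeated after any 2 bases. In the Irak2 promoter (chr6:113638217-113638516, plus strand), capitals mark a GC box, GGGCGG, on the opposite strand. GC boxes in the Tlr2 and Myd88 promoters are left unmarked.
Tlr2: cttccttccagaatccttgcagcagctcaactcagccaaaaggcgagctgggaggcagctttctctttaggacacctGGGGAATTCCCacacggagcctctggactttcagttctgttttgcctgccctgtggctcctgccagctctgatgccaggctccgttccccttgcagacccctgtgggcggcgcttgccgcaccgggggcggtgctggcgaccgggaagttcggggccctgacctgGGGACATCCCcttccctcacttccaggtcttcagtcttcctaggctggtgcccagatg
Myd88: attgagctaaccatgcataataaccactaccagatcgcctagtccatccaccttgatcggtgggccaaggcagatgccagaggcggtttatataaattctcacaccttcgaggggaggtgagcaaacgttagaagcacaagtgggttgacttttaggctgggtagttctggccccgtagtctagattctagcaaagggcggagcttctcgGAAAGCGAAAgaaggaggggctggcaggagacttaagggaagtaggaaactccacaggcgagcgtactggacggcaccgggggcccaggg
Irak2: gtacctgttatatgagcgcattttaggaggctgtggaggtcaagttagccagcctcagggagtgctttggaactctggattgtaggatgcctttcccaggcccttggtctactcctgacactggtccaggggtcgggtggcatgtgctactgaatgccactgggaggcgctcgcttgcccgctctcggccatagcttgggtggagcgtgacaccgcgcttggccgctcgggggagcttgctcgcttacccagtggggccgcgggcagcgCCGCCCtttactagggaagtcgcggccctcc

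Both strands were searched. The kappa B motif was in 8.46% of the 32851 promoters in the table and, among the 6 genes, in Tlr2 alone. The response element pattern was in 3.44% of all promoters and, of the 6, in that of Myd88. The GC box was in 35.7% of all promoters and in all 6. No promoter of the 6 held the AP-1 motif TGANTCA (7.81% of all), the PU.1 motif GAGGAAGT (3.2%) or the cyclic AMP element TGACGTCA (1.79%). CpG pairs numbered 19 in the Traf6 promoter, 18 in Irak2, 13 in Myd88, 11 in Tlr2, 10 in Ticam1, and 26 and 8 in the pair of Irak3 promoters, against a median of 7. The promoter windows of Tlr2, Irak2, Irak3, Traf6 and Ticam1 overlapped a region tested in the 16 libraries. That of Myd88 was reached only by a region of the longer lists described next.

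A list gives no read counts, so the strength of a region was its rank within a list. Each list was first shortened to its 19100 strongest autosomal peaks by the authors' -log10 p, as many as the smallest list holds. The value of a region is a percentile: 100 is the strongest peak of the list and 0 means no peak among those kept. Differences are therefore in percentile points and not in accessibility, and a region can move because others do. In bulk cells, a weaker region in every cell and an unchanged region in fewer cells cannot be told apart. At this length 18 of the 72 regions, at 9 of the 10 genes, had a peak in at least 3 lists and were tested. The shortest lists came from naive PBS 1 (19448 peaks), AF9-experienced PBS 1 (25685) and naive LPS 3 (39464), against 60841 to 88816 in the other 13. Without these 3 the lists could be shortened to 59609 peaks, which put 46 regions at all 10 genes into the test and left 5 AF9-experienced LPS, 3 AF9-experienced PBS, 2 naive LPS and 3 naive PBS libraries. These 13 libraries are called the longer lists. The other 26 regions were tested at neither length.

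Libraries differed in signal in step with the treatment. The median fold enrichment of the longer lists, the authors' own value, was 4.65 to 7.53 in the 7 LPS libraries and 8.34 to 13.3 in the 6 PBS libraries, with no overlap. Peaks on chromosome Y numbered 2 or 3 in AF9-experienced LPS 1 and 2 and in all 3 naive LPS libraries, and 0 or 1 in the others. Of 12 HSPC marker genes, 10 had a gene-end peak in all 13 longer lists. Ly6a, which encodes the sorted antigen Sca1, had none in any. Of 10 neutrophil markers, Mmp8 was in all 13 lists, Mpo in 11, Ltf in 9 and S100a8, S100a9 and Camp in 3 each, while Ngp, Cxcr2, Elane and Retnlg were in none. Of 7 T and NK cell markers, Bcl11b was in 9 and Cd3e in 3, while Cd3g, Cd4, Cd8a, Ncr1 and Klrb1c were in none. Among B cell markers, Ebf1 was in 13 lists and Cd79b in 12, while Cd79a, Ms4a1 and Pax5 were in none.

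**Figure D1:**
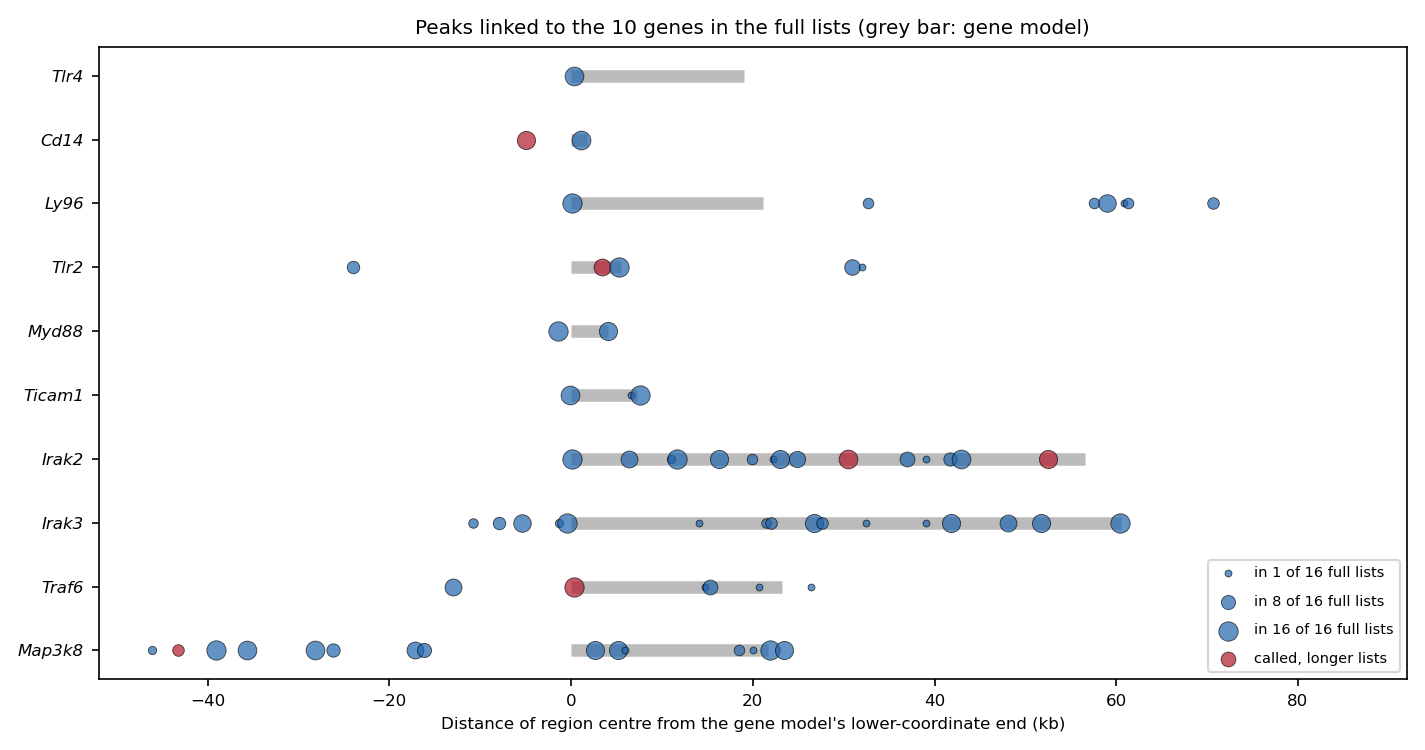
Each circle is 1 of the 72 regions in the full lists, placed by its distance in kb from the lower-coordinate end of its gene model (grey bar), with the area growing with the number of the 16 lists that hold it. Irak2, Irak3 and Map3k8 hold 15, 16 and 15 regions and Tlr4 only 1; red circles are the 6 regions called in the longer lists.

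Regions were spread unevenly over the genes. Irak3 had 16 regions in the full lists, Irak2 and Map3k8 15 each, Ly96 7, Traf6 6, Tlr2 5, Ticam1 3, Cd14 and Myd88 2 each, and Tlr4 1. By place, 14 lay at a gene end (within 1 kb of either end of the gene model), 33 inside a gene and 25 outside it. Of the 11 regions present in all 16 lists, 9 were gene ends. The member peaks per list numbered 41 to 55 in AF9-experienced LPS, 21 to 56 in AF9-experienced PBS, 36 to 53 in naive LPS and 14 to 51 in naive PBS, with the lowest number of each of the last 3 groups in its short list.

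The gene ends differed in strength. In the longer lists the start of Irak2, a kinase that prolongs MyD88 signalling, averaged 96.3 over the 13 libraries, and the start of Ticam1 averaged 93.1. Next came Traf6 (89.9), Tlr2 (85.0), the Myd88 region 1.0 kb past its far end (83.4), Ly96 (81.9), Map3k8 (81.0), Irak3 (76.4) and Tlr4 (75.2). Cd14, whose gene end ranged from 25.5 to 63.0, averaged 46.3. Along this order each gene's range over libraries overlapped that of its neighbour, except that every Cd14 value lay below the lowest Tlr4 value of 67.4. All genes were measured in the same libraries and were not compared within a library. The overlap of ranges therefore does not show that neighbours were alike.

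**Figure D2:**
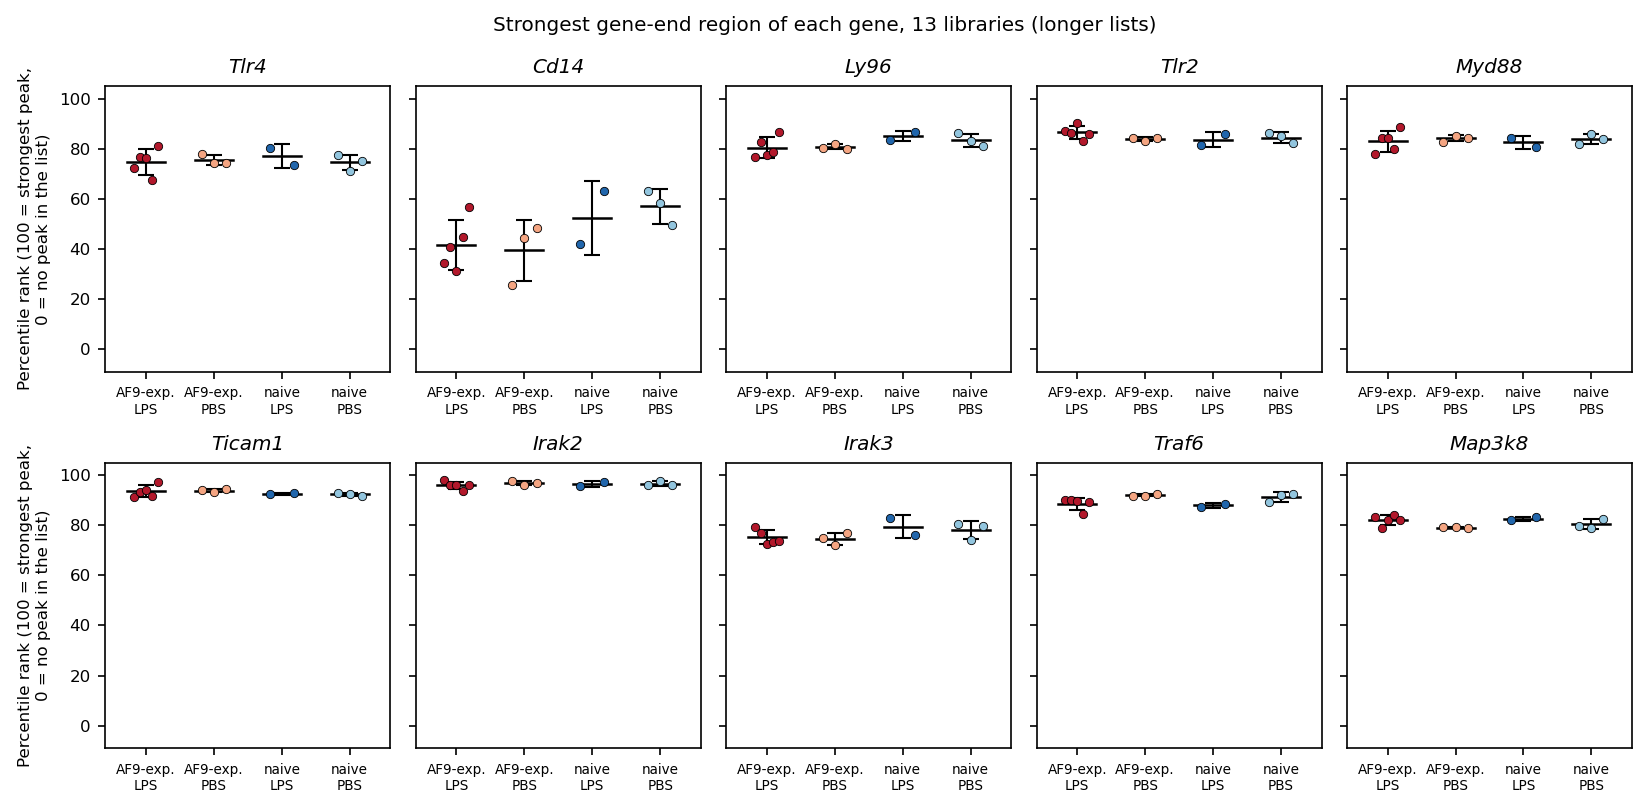
Percentile rank of the strongest gene-end region of each gene in the 13 libraries of the longer lists; points are libraries, bars the mean and SD of a group. LPS and PBS libraries overlap at all 10 genes, and only the Traf6 end, which lies at 84.4 to 90.1 after LPS and 89.1 to 92.6 after PBS, was called.

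The first question is what LPS did to these regions. In the 16 libraries 1 of 18 member regions was called, higher after LPS in the mean of both backgrounds (limma, Benjamini-Hochberg adjusted p under 0.05 over 23554 regions). Among all regions tested 12.6% were called, 7.18% higher and 5.45% lower. In AF9-experienced mice alone 0 of 18 were called (5.18% of all regions, 3.44% higher and 1.74% lower) and in naive mice alone 0 of 18 (3.22%, 2% higher and 1.22% lower), with 1 member region at an unadjusted p under 0.05 in each. The median difference over the 18 was 2.03 in the mean of both backgrounds, beside -0.11 over all regions tested.

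In the longer lists 6 of 46 member regions were called in the mean of both backgrounds, 5 higher and 1 lower, where 21.9% of 70017 regions were called, 10.2% higher and 11.7% lower. Of the 46, 4 had peaks in LPS lists alone and 1 in PBS lists alone. They passed the filter through the treatment in which they are high. The called Map3k8 region is one of these and its call is no support. The called Tlr2 region had peaks in 6 of 7 LPS and 2 of 6 PBS lists. It too passed the filter of 3 lists only through the LPS lists, and its call is no support either. The 5 higher regions are 10.9% of the 46, near the background share, and the 1 lower region is 2.17%, below it. By place, 0 of 13 gene ends were called higher and 1 lower, against 3 and 0 of 18 regions inside genes and 2 and 0 of 15 outside them. Among all gene ends tested 6.69% were called higher and 8.15% lower, among regions inside genes 11.4% and 12.6%, and among those outside 10.7% and 12.0%. In AF9-experienced mice 2 of 46 were called, both higher (background 10.5%, of which 4.93% higher and 5.53% lower). In naive mice 1 of 46 was called, also higher (background 6.73%, of which 3.9% higher and 2.83% lower). The median difference over the 46 was 0.92 and that over all regions -0.97.

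With the median fold of the list as a covariate, 0 of 46 member regions and 0 of 70017 in all were called in the mean of both backgrounds of the longer lists: because this measure does not overlap between LPS and PBS libraries, its part and that of LPS cannot be told apart there. In the 16 libraries the median fold was 6.58 to 13.6 after LPS and 5.07 to 19.4 after PBS. These ranges overlap only through the short lists AF9-experienced PBS 1 (5.34) and naive PBS 1 (5.07). Every other PBS library lay at 13.9 or more, above all LPS libraries. The Irak2 region stayed called there with the same covariate (24.6 points, limma adjusted p = 0.0165). That fit rests on the 2 short PBS lists, and naive PBS 1 had no peak at the region. It therefore cannot tell the part of the fold from that of LPS either.

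**Figure D3:**
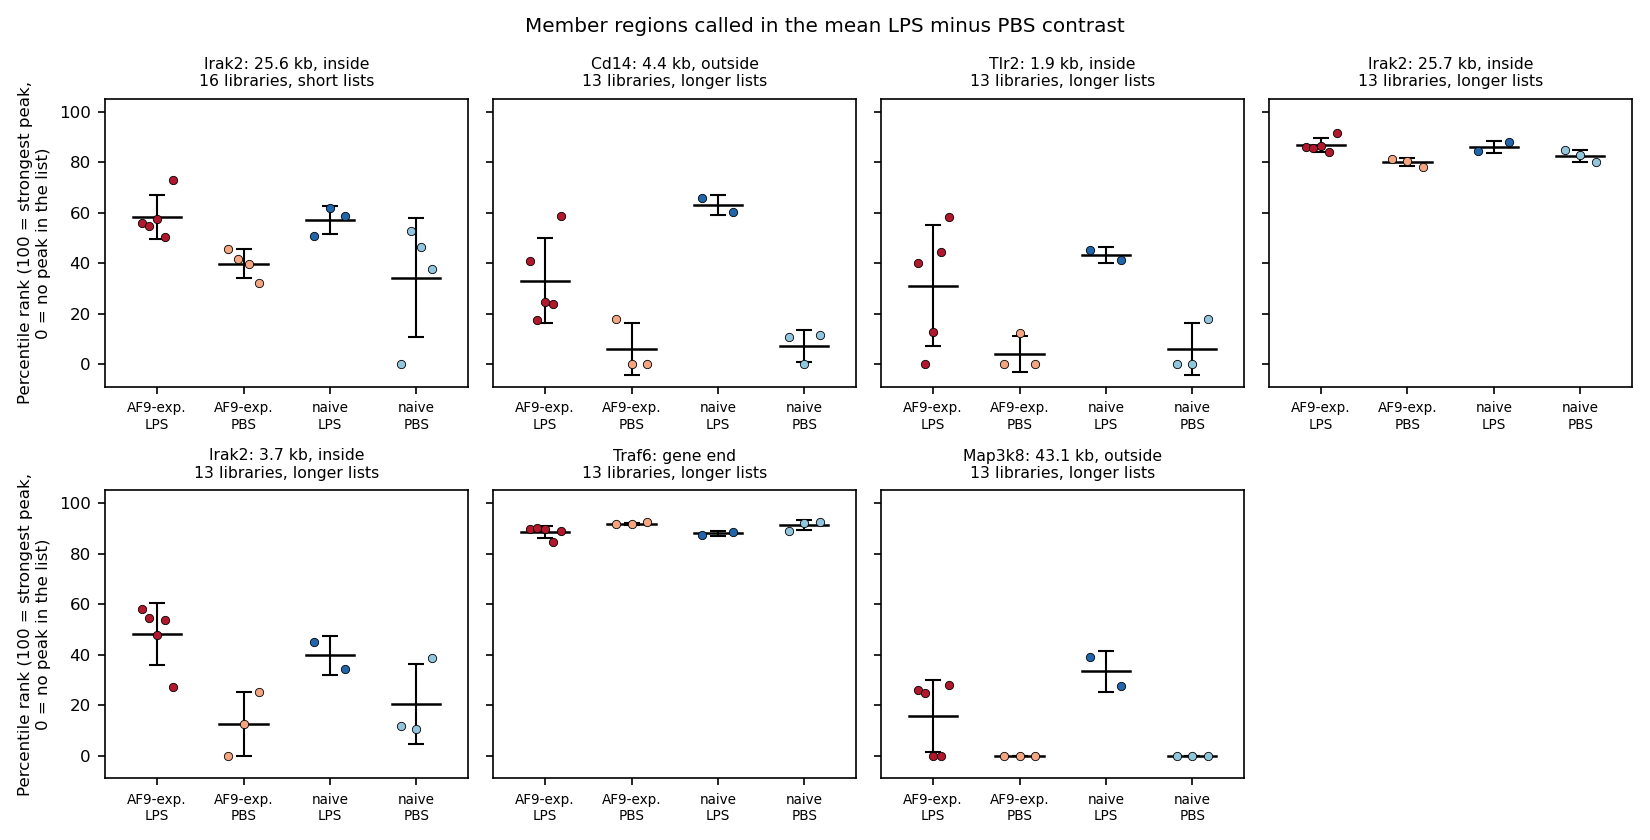
Percentile rank of the regions called in the mean LPS contrast, for the 16 libraries (first panel, Irak2) and the longer lists (the other 6 panels); points are libraries, bars the mean and SD of a group. After LPS the Cd14, Tlr2, Irak2 and Map3k8 regions lie higher in both backgrounds, and the Traf6 end lies 3.27 points lower. The Tlr2 and Map3k8 regions passed the filter through the LPS lists, so their calls are no support.

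Among the receptors, the largest difference was near Cd14, the co-receptor that hands LPS to TLR4. A region 4.4 kb outside the gene (chromosome 18, 36719649 to 36720628) had longer-list values of 40.7, 17.3, 24.4, 23.7 and 58.7 in AF9-experienced LPS libraries, against 18.0, 0 and 0 in AF9-experienced PBS libraries. In naive mice it had 65.9 and 60.1 after LPS, against 10.6, 0 and 11.4 after PBS. The naive groups do not overlap, and 1 AF9-experienced LPS library lies below the highest AF9-experienced PBS library. The region rose by 41.3 points in the mean of both backgrounds (SE 7.94; limma adjusted p = 0.00147) and by 55.7 in naive mice (SE 12.4; adjusted p = 0.0148). In AF9-experienced mice the difference was 27.0 (SE 9.92; adjusted p = 0.0899). The naive call was lost without naive LPS 1 (adjusted p = 0.0990), naive LPS 2 (0.0797) or naive PBS 3 (0.0579), and the mean call held without any 1 library. With the median fold as a covariate it was no longer called (56.8; adjusted p = 0.162). The full lists held the region in all 8 LPS and in 6 of 8 PBS libraries, and no list of 19100 peaks did. Its fold enrichment, the authors' value, was 3.82 to 8.09 in AF9-experienced LPS and 6.32 to 11.3 in the AF9-experienced PBS lists that held it. In naive mice it was 3.77 to 10.3 after LPS and 5.01 to 7.34 in the PBS lists that held it. In AF9-experienced mice the fold thus did not follow the rank. The fold was not tested between libraries.

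The Cd14 gene end itself (36725375 to 36726868) did not pass, with a longer-list mean of 41.5 ± 9.96 in AF9-experienced LPS (SD, n = 5), 39.4 ± 12.2 in AF9-experienced PBS (n = 3), 52.5 ± 14.8 in naive LPS (n = 2) and 57.0 ± 6.89 in naive PBS (n = 3). LPS and PBS values overlap in both backgrounds there (mean difference -1.22, SE 6.54, adjusted p = 0.91).

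For Tlr4, the LPS receptor, the 1 region lies at the gene end (chromosome 4, 66827246 to 66828326). Its values in all 16 libraries were 13.6, 27.1, 25.6, 0 and 40.9 in AF9-experienced LPS and 30.9, 31.2, 19.5 and 20.3 in AF9-experienced PBS. They were 38.9, 17.8 and 30.4 in naive LPS and 0, 29.4, 10.1 and 22.1 in naive PBS. All 4 groups overlap, and the mean difference of 4.80 was below its SE of 6.47 (adjusted p = 0.676). The longer-list range was 67.4 to 81.0 after LPS and 71.2 to 78.0 after PBS.

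Ly96, the MD-2 subunit that binds LPS, had its strongest region at the gene end (chromosome 1, 16688001 to 16689072). Its values in the 16 libraries ran from 27.0 to 58.1 after LPS, with a median of 43.9, and from 29.96 to 56.9 after PBS, with a median of 42.4. The difference was 0.32 points (SE 5.66; adjusted p = 0.98). Of 3 Ly96 regions in the longer lists the smallest p belonged to one 39.9 kb outside the gene. It entered the test through the 3 of 7 LPS libraries that held it, since 0 of 6 PBS libraries did, so its difference of 6.16 points (SE 4.39) is a description only.

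Tlr2, the lipoprotein receptor, had a strong end at its start (chromosome 3, 83840965 to 83842124), the region that covers the kappa B promoter shown above. Its mean in the 16 libraries was 57.8 ± 7.91 in AF9-experienced LPS (SD, n = 5), 51.3 ± 4.24 in AF9-experienced PBS (n = 4), 53.7 ± 10.8 in naive LPS (n = 3) and 47.9 ± 8.96 in naive PBS (n = 4). The difference of 6.11 did not pass (SE 4.504; adjusted p = 0.409). A second, weaker region inside the gene, 1.9 kb from that end (83839482 to 83839877), was called. Its longer-list values were 39.9, 0, 12.5, 44.3 and 58.0 in AF9-experienced LPS and 0, 12.3 and 0 in AF9-experienced PBS, and 45.3 and 41.0 in naive LPS against 0, 0 and 17.9 in naive PBS. The naive groups do not overlap, while AF9-experienced LPS 2 had no peak, as in most PBS libraries. Only 2 of 6 PBS libraries held this region, against 6 of 7 LPS libraries, so it passed the filter of 3 lists through the LPS lists. Its difference of 32.0 points (SE 9.16) is therefore a description, and its limma adjusted p of 0.0185 is no support. The call was lost without naive LPS 1 (adjusted p = 0.0655) or naive LPS 2 (0.0524).

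The adaptors did not pass at any region. Myd88, the adaptor of nearly all TLRs, had a region 1.0 kb past its far end (chromosome 9, 119334044 to 119334951) at 31.5 to 64.99 in AF9-experienced LPS and 0 to 53.6 in AF9-experienced PBS. It was at 31.4 to 51.4 in naive LPS and 33.3 to 55.4 in naive PBS. The difference was 2.25 (SE 7.23; adjusted p = 0.875). The region at its start, 0.7 kb from the gene Acaa1a (119339642 to 119340289), over the promoter shown above, was tested in the longer lists and ran from 43.5 to 61.2 after LPS and from 47.5 to 63.1 after PBS (difference -1.87, SE 4.67, adjusted p = 0.80).

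Ticam1 encodes TRIF, the adaptor of the interferon branch. The region at its start (chromosome 17, 56276429 to 56277641) averaged 79.7 ± 7.501 in AF9-experienced LPS (SD, n = 5) and 79.7 ± 2.20 in AF9-experienced PBS (n = 4), and 74.4 ± 4.20 in naive LPS (n = 3) and 72.5 ± 7.16 in naive PBS (n = 4). The difference was 0.95 (SE 2.90; adjusted p = 0.867). This region lies 1.3 kb from the gene Plin3, so its assignment to Ticam1 rests on the shorter distance. The region at the far end of Ticam1 (56269014 to 56269734) had a difference of 1.81 (SE 8.20; adjusted p = 0.912).

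Irak2 held the 1 region that was called at both list lengths. It lies inside the gene, 30.5 kb past the start and 25.6 kb from the nearer end (chromosome 6, 113668503 to 113669413). Its values in the 16 libraries were 55.7, 54.8, 57.6, 50.5 and 72.9 in AF9-experienced LPS, against 45.7, 41.7, 39.5 and 32.0 in AF9-experienced PBS. In naive LPS they were 50.7, 61.8 and 58.7, against 0, 52.6, 46.4 and 37.7 in naive PBS. The AF9-experienced groups do not overlap, and naive PBS 2 lies above naive LPS 1. The region rose by 20.7 points in the mean of both backgrounds (SE 6.22; p = 0.00301; adjusted p = 0.0307). Within a background the difference was 18.6 in AF9-experienced mice (SE 8.21; adjusted p = 0.211) and 22.9 in naive mice (SE 9.35; adjusted p = 0.215), neither past the threshold.

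The call was near the threshold. It did not hold when AF9-experienced LPS 5 (adjusted p = 0.0513), PBS 3 (0.0520) or PBS 4 (0.0632), or naive LPS 2 (0.0810) or LPS 3 (0.0576), was left out, while the difference stayed between 15.04 and 23.8 points without any 1 of the 16 libraries. It was also lost with lists of 9550 peaks (adjusted p = 0.0969), full lists (0.405), presence or absence alone (0.768), a 50% overlap (0.420) or no filter on lists (0.0581). Its longer-list values were 85.8, 85.5, 86.4, 84.1 and 91.3 in AF9-experienced LPS and 81.3, 80.6 and 78.2 in AF9-experienced PBS. They were 84.2 and 87.7 in naive LPS and 84.8, 82.8 and 80.0 in naive PBS. It rose there by 5.00 points (SE 1.41; adjusted p = 0.0172), and by 6.60 in AF9-experienced mice (SE 1.76; adjusted p = 0.0239), where the groups again do not overlap. The region stayed called in AF9-experienced mice without the libraries that had 2 or more Y peaks (7.25; adjusted p = 0.0324). Without naive LPS 2 the mean call was lost (adjusted p = 0.105), and in AF9-experienced mice the call did not hold without PBS 2 (0.0541), PBS 3 (0.0748) or PBS 4 (0.123).

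Ranked by the authors' -log10 p among the autosomal peaks of its list, the same region stood at 5172 to 9462 in AF9-experienced LPS, 10379 to 12989 in AF9-experienced PBS, 7306 to 9422 in naive LPS and 9059 to 11894 in the 3 naive PBS lists that held it. Its fold enrichment, the authors' value, was 8.56 to 14.0 in AF9-experienced LPS. In AF9-experienced PBS it was 4.99 in PBS 1, a short list, and 15.7 to 17.0 in the others. In naive mice it was 7.39 to 13.1 after LPS and 13.8 to 16.6 in the PBS lists that held it. Outside the short list PBS 1 the fold was thus higher after PBS, opposite to the rank. The fold was not tested between libraries.

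Over the 16 libraries, the regions linked to other genes whose values ran most like it were one 37.6 kb from Cnih3 (Spearman's rho 0.911), one inside Atp10a (0.906) and the gene end of Itpripl2 (0.897), chosen from 22115 regions. All 3 share with it the libraries, their list depth and the treatment groups, and the correlation is given as a description only.

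A second Irak2 region, inside the gene 3.7 kb from its far end (113690486 to 113691329), had longer-list values of 57.9, 54.4, 47.8, 53.6 and 27.0 in AF9-experienced LPS and 0, 12.6 and 25.0 in AF9-experienced PBS. In naive mice these were 45.0 and 34.2 after LPS, and 11.8, 10.6 and 38.6 after PBS. The AF9-experienced groups do not overlap and the naive groups do. This region rose by 27.5 points in the mean of both backgrounds (SE 7.96; adjusted p = 0.0199) and by 35.6 in AF9-experienced mice (SE 9.94; adjusted p = 0.0297). The mean call did not hold when naive LPS 1 (adjusted p = 0.0856), naive PBS 3 (0.0549) or AF9-experienced PBS 2 (0.0563) was left out. Within AF9-experienced mice it did not hold when LPS 2 (0.0520), PBS 2 (0.153), PBS 3 (0.106) or PBS 4 (0.0502) of that background was left out, nor without the libraries that had 2 or more Y peaks (0.0833). The authors' fold enrichment here was 4.07 to 7.16 in AF9-experienced LPS and 6.12 to 8.06 in the AF9-experienced PBS lists that held it. In naive mice it was 3.81 to 5.69 after LPS and 4.36 to 7.64 in the PBS lists that held it. The fold was thus mostly lower after LPS, opposite to the rank, and was not tested.

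The Irak2 gene end, the strongest of all 72 regions, did not pass. It ran from 80.0 to 93.2 in AF9-experienced LPS and 84.7 to 93.2 in AF9-experienced PBS, and from 81.1 to 91.8 in naive LPS and 87.1 to 96.5 in naive PBS (difference -3.14, SE 2.11, adjusted p = 0.36). The other 7 Irak2 regions of the longer lists had differences from -6.98 to 12.1 points and none was called.

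Irak3 encodes IRAK-M, an inhibitor of the pathway that dampens repeated LPS responses in macrophages. Its start region (chromosome 10, 120201090 to 120203049) had 34.8, 27.7, 14.0, 17.0 and 18.0 in AF9-experienced LPS and 55.1, 21.9, 12.96 and 27.6 in AF9-experienced PBS. It had 46.1, 25.7 and 59.7 in naive LPS and 51.4, 39.4, 19.2 and 36.3 in naive PBS. The LPS and PBS values overlap in both backgrounds and the mean difference was 0.07 (SE 6.98; adjusted p = 0.997). None of 9 Irak3 regions of the longer lists was called. The smallest p belonged to the far end of the gene (120140811 to 120141627), with 69.0, 67.4, 58.7, 50.3 and 72.6 in AF9-experienced LPS and 64.0, 58.9 and 59.0 in AF9-experienced PBS. It had 72.3 and 70.7 in naive LPS and 45.3, 46.3 and 65.7 in naive PBS (difference 11.03, SE 4.59, adjusted p = 0.0937). A region 5.1 kb outside that end and one 12.1 kb inside the gene had differences of -17.9 and -16.1, so the 9 did not share a direction.

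Traf6, the ubiquitin ligase that MyD88 and the IRAKs activate, was the only one of the 10 genes with a region called lower after LPS. Its start region (chromosome 2, 101678099 to 101679430) had longer-list values of 89.9, 90.1, 89.6, 84.4 and 89.1 in AF9-experienced LPS and 91.7, 91.6 and 92.3 in AF9-experienced PBS. It had 87.3 and 88.6 in naive LPS and 89.1, 92.2 and 92.6 in naive PBS. LPS lies below PBS without overlap in each background. The region fell by 3.27 points (SE 1.04; adjusted p = 0.0317), a call lost without AF9-experienced PBS 2, 3 or 4, naive LPS 1 or 2, or naive PBS 3 or 4 (adjusted p 0.0564 to 0.116). With the median fold in the fit the sign turned, to a difference of 0.82 (adjusted p = 0.90). In the 16 libraries the difference was -7.64 (SE 3.28; adjusted p = 0.135).

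Map3k8, whose product TPL2 activates the ERK branch, had a gene end (chromosome 18, 4352781 to 4353729) that ranged from 34.5 to 50.3 in AF9-experienced LPS and 34.3 to 53.1 in AF9-experienced PBS. In naive mice it ranged from 40.1 to 47.2 after LPS and 33.5 to 53.5 after PBS (difference 2.93, SE 4.91, adjusted p = 0.744). The called region lies 43.1 kb outside the gene (4287916 to 4288256), toward the 50 kb limit of the link. Its longer-list values were 25.9, 24.7, 0, 0 and 28.0 in AF9-experienced LPS and 0 in the 3 AF9-experienced PBS libraries, and 39.2 and 27.6 in naive LPS and 0 in the 3 naive PBS libraries. So 5 of 7 LPS libraries and no PBS library held it, and the region entered the test through the LPS lists alone. Its difference of 24.5 points (SE 6.32) is therefore given as a description, with no test. Full lists also held it in 5 of 8 LPS and 0 of 8 PBS libraries, at ranks 36267 to 44914.

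The Map3k8 region with the smallest p in the 16 libraries was one 35.8 kb outside the gene (4295113 to 4295496). It had 11.2, 20.3, 34.2, 3.72 and 17.9 in AF9-experienced LPS and 4.85, 11.2, 0 and 10.0 in AF9-experienced PBS, and 21.0, 0 and 21.1 in naive LPS and 0, 0, 0 and 2.32 in naive PBS. Groups overlap in both backgrounds and the difference of 12.2 did not pass (SE 4.80; adjusted p = 0.102). Just inside the 50 kb limit stood a Map3k8 region at 46 kb and a Ly96 region at 49.2 kb, in 2 and 5 of the full lists. Just outside it, 51.2, 51.9 and 54.6 kb from Map3k8, stood regions in 2, 16 and 13 lists that are not counted as members.

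**Figure D4:**
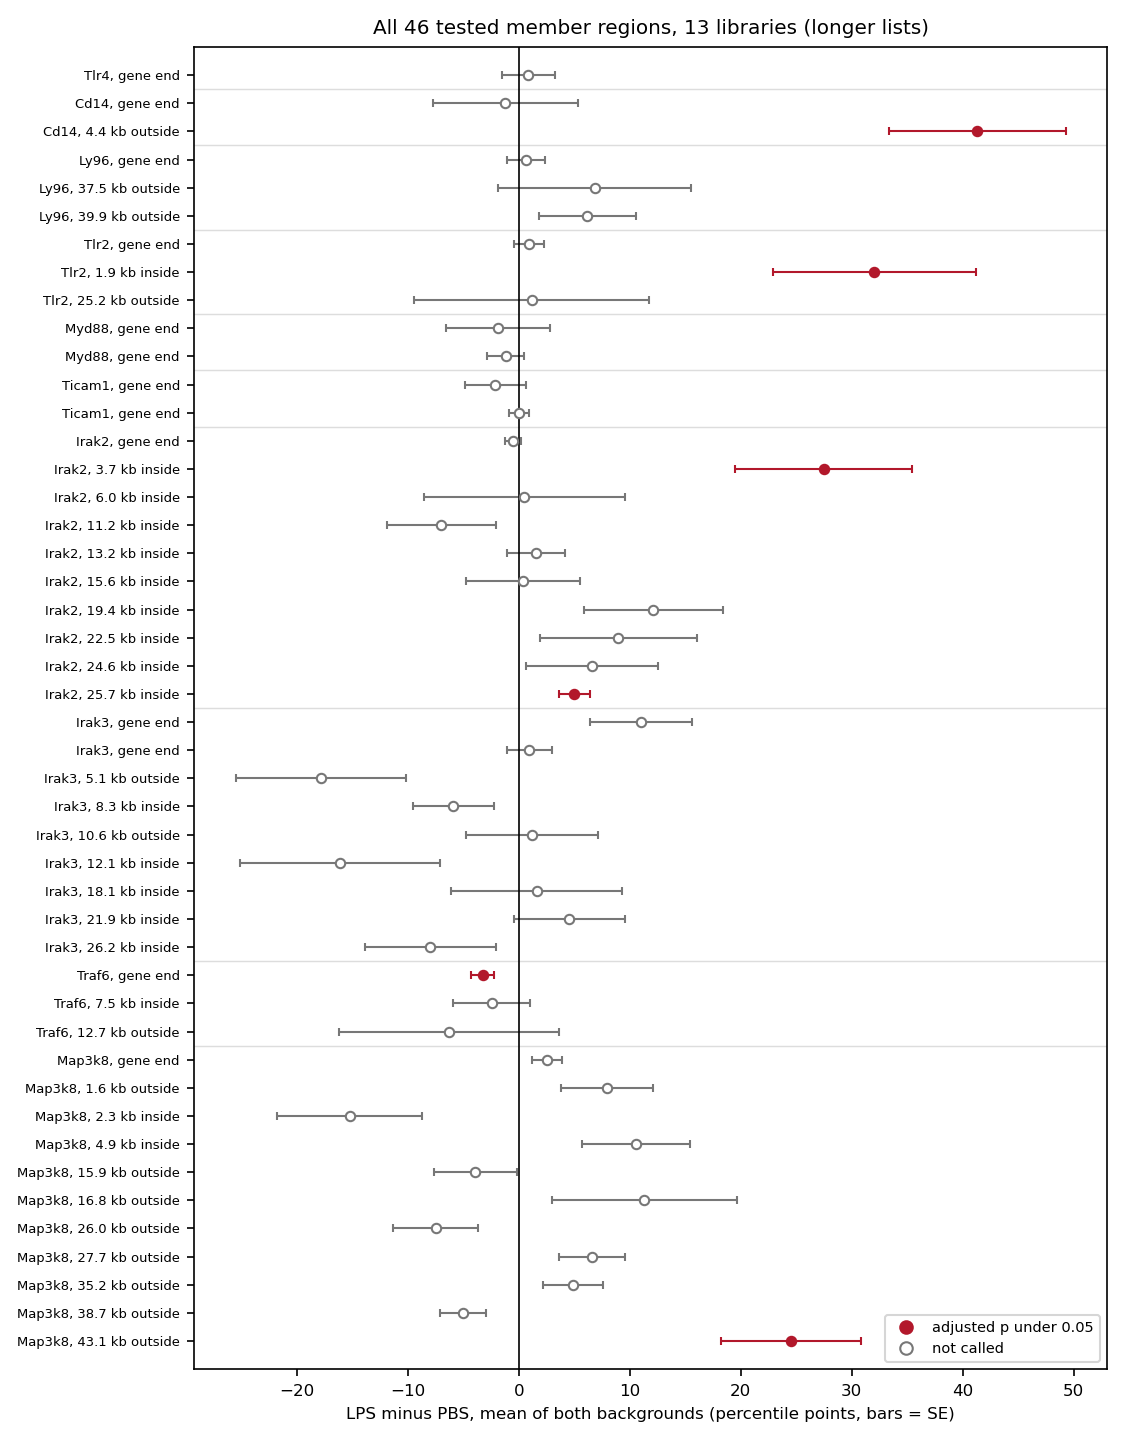
Difference between LPS and PBS, mean of both backgrounds, with its SE, for the 46 member regions tested in the longer lists, grouped by gene. Differences run from -17.9 points near Irak3 to 41.3 near Cd14. The 6 called regions are red, and 5 of them lie above 0, where 10.2% of all regions were called higher and 11.7% lower. Of the 5, the Map3k8 region at 43.1 kb and the Tlr2 region at 1.9 kb passed the filter through the LPS lists, so their calls are no support.

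The second question is whether past exposure to MLL-AF9 cells left a trace at these genes. After LPS, 0 of 18 member regions in the 16 libraries and 0 of 46 in the longer lists differed between AF9-experienced and naive mice by limma, where 0.0127% of all regions (all lower) and 0.0129% (0.00143% higher, 0.0114% lower) were called. At an unadjusted p under 0.05 there was 1 of 18 and 1 of 46. The first was the Irak3 start region, listed above, with a mean of 22.3 ± 8.67 in AF9-experienced LPS (SD) and 43.8 ± 17.1 in naive LPS, a difference of -21.5 (SE 10.0; limma p = 0.0428; adjusted p = 0.916). The other was the Cd14 region 4.4 kb from the gene, with 33.0 ± 16.8 in AF9-experienced LPS (SD) and 63.0 ± 4.15 in naive LPS, a difference of -30.004 (SE 11.4; limma p = 0.0168; adjusted p = 0.701). After PBS, 0 of 18 and 0 of 46 were called (background 0 in both) and none had an unadjusted p under 0.05. The median difference between the backgrounds was 0.16 points after PBS and 1.81 after LPS over the 18 regions.

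The third question is whether that exposure altered the LPS response. The difference between the LPS effects of AF9-experienced and naive mice passed at 0 of 18 and 0 of 46 member regions, with no unadjusted p under 0.05, and at 0% of all regions at both list lengths. The largest difference was at a weak Tlr2 region 25.2 kb outside the gene, with 35.9, 44.1, 0, 0 and 46.8 in AF9-experienced LPS and 60.6, 39.0 and 35.7 in AF9-experienced PBS, and 53.3 and 53.8 in naive LPS and 0, 42.0 and 52.6 in naive PBS. Its LPS effect was lower in AF9-experienced than in naive mice (difference -41.8, SE 21.2, p = 0.0641, adjusted p = 0.993), and 3 of the 13 libraries had no peak. At the Cd14 region the difference was -28.7 (SE 15.9; p = 0.0877; adjusted p = 0.993). At the Irak2 region 3.7 kb from the far end it was 16.3 (SE 15.9; p = 0.32; adjusted p = 0.993). An SE of this size leaves room for sizeable differences in either direction, so similar LPS effects in both backgrounds are not shown.

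**Figure D5:**
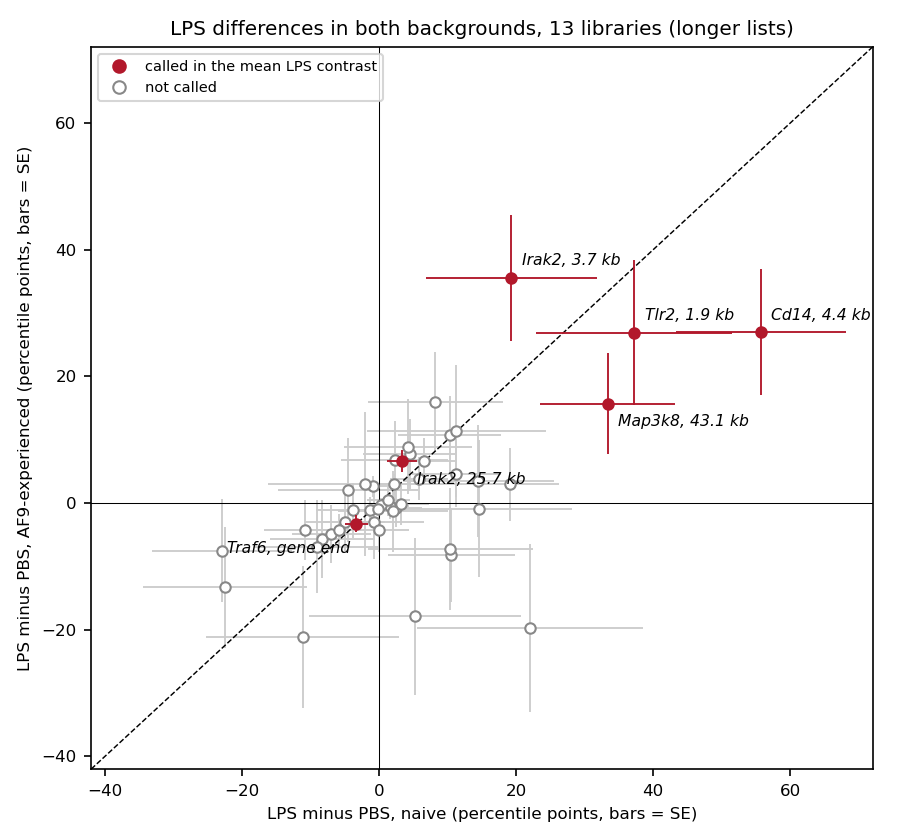
LPS minus PBS in AF9-experienced mice (y axis) against naive mice (x axis) for the 46 member regions of the longer lists, in percentile points with SE bars; the dashed line marks equal differences. The called Cd14, Tlr2 and Map3k8 regions lie below that line and both Irak2 regions above it, and none was called in the test of that difference.

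Around the 10 genes, 61 other genes of the pathway were read from a list of receptors, accessory proteins, adaptors, kinases and ligases, inhibitors and interferon regulatory factors. In the 16 libraries 116 regions at 49 of these genes were tested, and in the mean of both backgrounds 12 were higher after LPS (10.3%) and 6 lower (5.17%), beside 7.18% and 5.45% of all regions. The 3 with the smallest p among those that rose were a region inside Itgb2, a subunit of the CR3 integrin (LPS 26.6 to 45.8, PBS 0 to 11.4, difference 33.7), one inside Inpp5d, which encodes the inhibitory phosphatase SHIP1 (LPS 36.4 to 81.8, PBS 0 to 59.8, difference 42.6), and one 46.6 kb from Tnfaip3, which encodes A20, an inhibitor of NF-kB (LPS 71.8 to 87.4, PBS 45.3 to 80.3, difference 18.4). Those that fell were a region inside Peli2, a ubiquitin ligase that acts on IRAKs (LPS 0 to 48.4, PBS 53.3 to 65.2, difference -32.1), one at the end of Tlr9, the receptor of unmethylated DNA (LPS 0 to 26.9, PBS 0 to 57.7, difference -30.5), and one inside Pik3ap1, an adaptor of phosphoinositide 3-kinase (LPS 0 to 12.3, PBS 0 to 47.4, difference -21.0). The limma adjusted p of the 6 ran from 9.01e-05 to 0.0121. The last is that of the Pik3ap1 region, which was 0 in naive LPS and averaged 2.47 in AF9-experienced LPS. This region passed the filter of 3 lists through the PBS lists, in which it is high, so its call is no support. Within AF9-experienced mice 5 of the 116 regions were higher and 1 lower (3.44% and 1.74% of all regions), and within naive mice 1 and 1 (2% and 1.22%). Among the 5, a region inside Zc3h12a was at 0 to 42.3 in LPS libraries and at 0 in every PBS library. It passed the filter through the LPS lists, so its call is no support. The 1 lower region in naive mice was that of Pik3ap1, and this call is no support either. By subgroup, the mean contrast called 1 region higher and 1 lower of 9 at other TLRs, 3 and 0 of 17 at accessory proteins, 1 and 1 of 12 at adaptors, 1 and 4 of 40 at kinases and ligases, 6 and 0 of 34 at inhibitors, and 0 and 0 of 4 at interferon regulatory factors. In the longer lists 35 of 313 regions at 55 of the genes were higher and 23 lower (11.2% and 7.35%, beside 10.2% and 11.7% of all). At inhibitors the 6 higher regions of the 16 libraries lay at 3 genes. Of 81 inhibitor regions in the longer lists, 15 at 7 genes were higher and 7 at 4 genes were lower (18.5% and 8.64%).

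Markers of other cell types moved with the treatment in part. Summed over 11 monocyte and macrophage markers, the gene-end values of the longer lists were 530.4 to 614 in AF9-experienced LPS and 483 to 535 in AF9-experienced PBS, and 564 to 584 in naive LPS and 425 to 501.4 in naive PBS. Of these markers 7 were present in all 13 lists and C1qa in none. Of their 31 tested regions 9 were called higher after LPS and 2 lower, where 10.2% of all regions were called higher and 11.7% lower. Here too the part of LPS and that of the median fold cannot be told apart. Neutrophil markers summed to 62.7 to 179.7 in AF9-experienced LPS and 119.9 to 153 in AF9-experienced PBS, and to 118 to 125 in naive LPS and 89.6 to 129 in naive PBS, with 4 of 21 regions higher and 2 lower. HSPC markers summed to 791 to 859 in AF9-experienced LPS and 837 to 853 in AF9-experienced PBS, and to 796 to 808 in naive LPS and 840.1 to 864 in naive PBS, with 22 of 157 regions higher and 17 lower. Mast cell and basophil markers, of which Cpa3 was in all 13 lists, Mcpt8 in 10 and Ms4a2, Prss34 and Cma1 in none, summed to 34.6 to 115 in AF9-experienced LPS and 56.7 to 65.7 in AF9-experienced PBS. In naive mice they summed to 79.0 to 88.5 after LPS and 24.4 to 35.4 after PBS, without overlap. Sums of dendritic cell markers were 193 to 238 in AF9-experienced LPS and 169 to 199.7 in AF9-experienced PBS, and 174 to 233 in naive LPS and 152 to 211 in naive PBS. Of these 6 markers Flt3, with a mean of 96.0, is also on the HSPC list. Itgax and Clec9a were in all 13 lists, Zbtb46 in 9, Siglech in 8 and Xcr1 in none. Sums of T and NK cell, erythroid and endothelial markers overlapped between LPS and PBS in both backgrounds. Of regions at dendritic cell markers 3 of 26 were higher and 3 lower, at T and NK cell markers 0 and 3 of 15, at erythroid markers 1 and 0 of 10, at mast cell and basophil markers 1 and 1 of 12, and at endothelial markers 3 and 4 of 29. Monocytes, macrophages and neutrophils carry CD14 and TLR2, while the cells sorted here were lineage-negative, cKit-positive and Sca1-positive. The part of these markers in the Cd14 and Tlr2 results was not tested.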

How the data were processed

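Build GRCm38 and the tools MACS3, BWA, Trim Galore, Picard and FastQC were used per the submitters' processing notes; versions and settings are not given in the sources used here. The labels' protocols name both Omni-ATAC and a Chromium GEM chemistry, and which step used the Chromium chemistry is not given there. Per the labels, the technical libraries of a replicate share 1 deposited peak list, with a score, a fold enrichment (a ratio), a -log10 p-value and a -log10 q-value per peak; these are the authors' values. No read counts were used, so the read depth behind a peak is unknown.

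Peaks on the 19 autosomes were ranked by -log10 p within a list, lists were shortened to equal length, overlapping peaks were merged (31846 regions), and regions seen in at least 3 lists were tested with limma 3.58.1 (eBayes with trend and robust, R 4.3.3) on 4 group means, with Benjamini-Hochberg adjustment over all regions at 0.05. Python 3.11.15, pandas 2.3.3 and numpy 2.4.6 were used. The code was checked on simulated data. The p-values measure the spread between samples labelled as biological replicates, which may be in part technical.

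Regions were linked to the nearest of 20665 autosomal protein-coding gene models within 50 kb. For each of the 10 genes the text names its strongest gene-end region, its region with the smallest p and each called region, and up to 3 pathway genes per direction and contrast by smallest p; the Tlr2 region 25.2 kb from the gene was chosen after its values were seen. Members and lists were chosen with earlier results of these data known. The alternatives were other ranks, list lengths, thresholds, overlaps, windows, filters, covariates, weights, a replicate block and leaving out libraries. One marker gene and the count of its marker list are not reported here.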

Additional observations from a re-analysis of the deposited data

Results flagged for a closer look

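Of 54 groups of 4 or 5 libraries examined at the named regions, 8 held a library far from the others of its group. Chance gives about 1 in 20 for independent groups without ties; here the groups share regions and libraries across the list lengths and some values are at 0, so that rate is only a guide. At the Traf6 start, AF9-experienced LPS 4 had 51.4 in the 16 libraries, against 66.0 to 69.3 in the rest of its group, and 84.4 in the longer lists, against 89.1 to 90.1. At the same region naive PBS 2 had 65.8, against 75.5 to 76.8. The Traf6 call in the longer lists is in the direction of the low AF9-experienced LPS 4 value, but it held when that library was left out. The other 5 lie in the 16 libraries. The Myd88 region 1.0 kb from the gene had no peak (0) in AF9-experienced PBS 1, a short list, against 46.5 to 53.6. The far end of Irak3 had 14.4 in AF9-experienced LPS 5, against 0 to 3.1, and 35.6 in naive PBS 1, the shortest list, against 0. The Map3k8 region 35.8 kb from the gene had 2.32 in naive PBS 4, against 0, and the Map3k8 gene end had 53.1 in AF9-experienced PBS 1, against 34.3 to 34.9.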

How the results depend on the processing

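In the 16 libraries the count of member regions called in the mean of both backgrounds was 1 of 18. It was 0 with lists of 9550 peaks, full lists, presence alone, a 50% overlap or no filter, 2 when ranked by fold or without the 3 short lists, 3 with library weights, 6 in the longer lists, and 0 to 1 without any 1 library. In AF9-experienced mice the count of 0 became 1 without the 3 short lists, 2 in the longer lists or with weights, and 0 to 1 without any 1 library. In naive mice it became 1 in the longer lists. In the longer lists the mean count of 6 was 14 ranked by fold, 0 with the median fold as covariate and 3 to 7 without any 1 library. The AF9-experienced count of 2 was 9, 0 and 0 to 3 in the same order, and the naive count of 1 was 4, 0 and 0 to 2, or 2 with weights. Ranked by fold, 36.1% of all regions were called in the mean contrast, so the larger counts go with a larger background. Alternatives to the longer lists and the test without libraries with Y peaks were chosen after seeing the data. The 0 counts for AF9-experienced against naive mice and for the interaction held under every alternative run. The Traf6 start reversed with the median fold as covariate, to 0.82; the cause was not tested.

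Replicate numbers did not pair the samples: of 21 same-numbered pairs, 3 had correlated deviations over 0.1 (range -0.22 to 0.23), and 3 libraries correlated best with their own number. With a replicate block the mean count was 0 in the 16 libraries and 3 in the longer lists, and the naive count in the longer lists was 0. The number of peaks in the shortest list limits which weak regions could be tested at all: of the 5 regions called higher in the longer lists, only the Irak2 region 25.7 kb from the gene end entered the test in the 16 libraries.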

Other observations

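Some weak member regions were listed unevenly in the full lists. A Map3k8 region 26.0 kb outside the gene was in 1 of 8 LPS and 6 of 8 PBS lists and was not called. The region 16.8 kb outside that gene was listed evenly, in 6 of 8 of each. Near Ly96, a region 36.2 kb outside the gene was in 0 of 8 LPS and 4 of 8 PBS lists and was tested at neither length. Another, 39.8 kb outside Ly96, was in 4 of 8 LPS and 0 of 8 PBS lists and was not called. Outside the 3 short lists, the lists held 60841 to 86677 peaks after LPS and 63241 to 88816 after PBS.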
